A study of Mus musculus with 4 samples.

Results

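The cytosolic ribosomal proteins were taken from the deposited table by gene symbol. They were the rows whose symbol starts with Rpl or Rps followed by a digit, together with Rplp0, Rplp1, Rplp2 and Rpsa. Rows named as pseudogenes (names holding -ps) and the S6 kinases (Rps6k) were left out. This gave 87 of the 15586 rows, 52 of the large and 35 of the small subunit. Of the 87, 77 carry the standard name of a ribosomal protein (46 large, 31 small). The other 10 are paralogs, retrogenes and similar names, among them Rps19bp1, which encodes a binding partner of a ribosomal protein and no part of the ribosome.

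Microglia, the retina's own macrophages, were sorted on EYFP from 2-month-old mice that carried Cx3cr1CreER/+, a tamoxifen-inducible Cre at the locus of a receptor of microglia and other myeloid cells, and floxed alleles of the TAK1 gene. TAK1, encoded by Map3k7, is a signalling kinase that acts upstream of NF-kB and the MAP kinases. The 2 control libraries came from mice given corn oil on 5 consecutive days, and the 2 knockout libraries from mice given tamoxifen at 75 mg/kg on 5 consecutive days, so deletion and drug cannot be told apart. The genotype label of the knockout samples reads Cx3cr1CreER/+;Tak3fl/fl and that of the controls Cx3cr1CreER/+;Tak1fl/fl; groups are named here by the sample titles. Each library held 200 cells. The labels do not say whether the libraries came from separate animals, so p-values reflect only how far these samples spread, and that spread may be technical.

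Ribosomal proteins assemble on ribosomal RNA into a small subunit, which reads the messenger RNA, and a large subunit, which forms peptide bonds. Their messenger RNAs are among the most abundant of most cells, are short, and mostly begin with a cytidine and a run of pyrimidines, the terminal oligopyrimidine start, through which mTORC1 and the RNA-binding protein Larp1 adjust their translation. Their genes lack a common upstream enhancer but many have sites for ETS family factors, such as GABP, close to the start.

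The promoter sequences of the genes measured here were searched for these features. RefSeq windows (GRCm38.p6, 250 bases before to 50 after each listed start) were matched to 66 of the 87 genes, and a gene counted as holding a motif where any of its windows held it. A C at the listed start followed by at least 4 bases that are each C or T, read on the gene's strand only, was in 15 of 66 (22.7%) against 3.01% of all 27025 genes with a window. With the C allowed within 5 bases of the start, it was in 32 of 66 (48.5%) against 21.2%. The ETS core CCGGAAG, on either strand, was in 25 of 66 (37.9%) against 9.93%. GGGCGG, the SP1 core, was in 60.6% against 38.2%, AAGATGGC, a YY1 core, in 9.09% against 3.19%, and TATAAA in 12.1% against 15.7%, all on both strands. The 889 other genes with a window that averaged 100 FPKM or more were nearer for some of these. They held the C at the start in 2.47%, the C within 5 bases in 21.9%, the ETS core in 24.5%, the SP1 core in 64.7%, the YY1 core in 7.31% and TATAAA in 11.5%. A match describes letters and not a bound site.

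Of the genes with 1 listed start, 4 of the most abundant are shown from 60 bases before the start to 20 bases from it, on the gene's strand and 5′ to 3′, since they show the kinds of start found. Capitals mark an ETS or SP1 core and the run of C and T around the start; in Rpl35 the run begins 7 bases before the start, within the SP1 core CCGCCC, so that core and run overlap. The windows are chr2:39005112-39005191 (minus strand) for Rpl35, chr3:90213629-90213708 (minus) for Rps27, chr17:33955646-33955725 (minus) for Rps18 and chr10:128549149-128549228 (minus) for Rpl41, which holds an ETS and an SP1 core and no run within 5 bases of its start.
Rpl35: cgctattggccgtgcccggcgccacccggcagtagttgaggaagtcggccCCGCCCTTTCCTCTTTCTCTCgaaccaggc
Rps27: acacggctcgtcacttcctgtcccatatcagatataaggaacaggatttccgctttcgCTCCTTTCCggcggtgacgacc
Rps18: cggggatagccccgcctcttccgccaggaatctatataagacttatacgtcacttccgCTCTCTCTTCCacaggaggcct
Rpl41: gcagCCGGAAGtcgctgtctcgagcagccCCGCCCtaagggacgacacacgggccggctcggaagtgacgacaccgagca

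Values are FPKM, fragment counts divided by transcript length and library size, so levels can be compared between genes, and depth per library is unknown. FPKM summed to 812009 to 969700 per library, and 3777 and 4481 genes reached 1 FPKM in control libraries against 5628 and 6055 in the knockouts. All 16 fixed microglia markers were detected, and their summed FPKM was 17374 and 18121 in control libraries and 42846 and 27886 in the knockouts. Summed markers of several other cells differed between the groups as well. Those of Müller glia overlapped, with 8 markers at 5171 and 5400 FPKM in control libraries and 10211 and 2281 in the knockouts. Of 12 monocyte markers 10 were in the table, with summed FPKM of 1063 and 1527 in control libraries and 53.7 and 130 in the knockouts. Most of the knockout sums came from S100a4 in knockout 1 (49.8 FPKM) and F13a1 in knockout 2 (119 FPKM). F13a1 read 0.18 and 0.03 FPKM in control libraries. The 15 rod photoreceptor markers summed to 2974 and 4012 FPKM in control libraries and 7259 and 11924 in the knockouts. The 8 bipolar cell markers summed to 4.36 and 180 FPKM against 907 and 760, and the 6 endothelial and mural markers in the table to 0.19 and 0.67 against 156 and 29.7. Nearly all of that last sum in the knockouts came from Vtn (96.1 and 29.3 FPKM) and Rgs5 (60.2 and 0.1). Kdr, Cdh5, Pecam1 and Cspg4 read at most 0.45 FPKM in any library. In libraries of pooled cells, fewer cells of a type and less RNA per cell cannot be told apart.

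Ribosomal protein transcripts took a smaller part of the FPKM in both knockouts than in both controls, in both subunits. The large subunit rows held 3.83% and 4.71% of the summed FPKM in control 1 and 2, and 2.72% and 3.36% in knockout 1 and 2. The small subunit rows held 3.23% and 4.50% in control libraries and 2.47% and 2.29% in the knockouts. The means were 4.27 ± 0.62% and 3.04 ± 0.45% (SD, n = 2 each) for the large and 3.86 ± 0.90% and 2.38 ± 0.13% (SD, n = 2 each) for the small subunit. The groups did not overlap in either subunit, with an exact two-sided permutation p = 0.333 for each, the smallest that 2 against 2 libraries allow. The difference of the means, -1.23 percentage points for the large and -1.48 for the small subunit, was -0.79 and -0.85 without control 2. The 2 knockouts differed from each other in the balance of the subunits. The ratio of large to small subunit FPKM was 1.19 and 1.05 in control libraries, 1.10 in knockout 1 and 1.46 in knockout 2, where the groups overlapped (exact two-sided permutation p = 0.667). A share of FPKM is relative to all other RNA of the library. In the knockouts rod, bipolar and microglia markers had a larger sum, Vtn read higher and monocyte markers had a smaller sum. Their part in the ribosomal protein shares was not tested. The medians over genes were also lower in both knockouts than in both controls. Over large subunit genes averaging 1 FPKM or more, the median was 418 and 589 FPKM in controls and 270 and 374 in knockouts. Over the small subunit genes of that level it was 723 and 685 FPKM against 411 and 440. Of the 87 genes 23 and 22 exceeded 1000 FPKM in control libraries, against 9 and 11 with knockout.

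**Figure D1:**
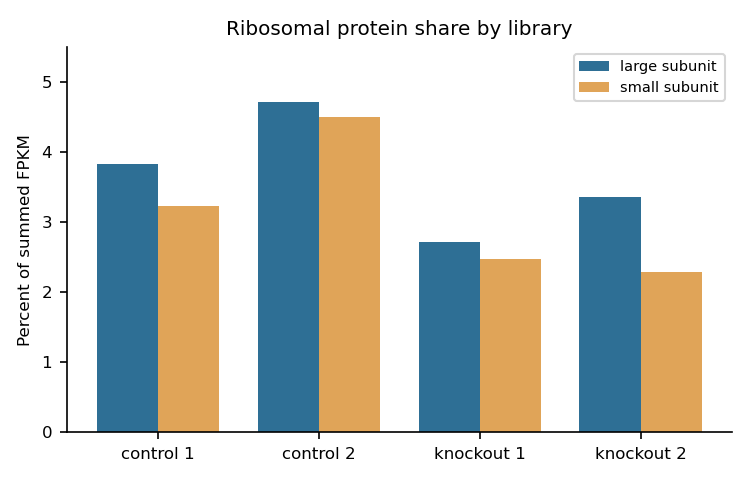
Percent of each library's summed FPKM held by the 52 large and 35 small subunit rows, 1 bar per subunit and library. Both bars of each knockout are lower than the same bars of both controls, and the 2 bars are furthest apart in knockout 2 (3.36% and 2.29%).

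Gene by gene, both knockouts lay below both controls in 53 of the 84 ribosomal protein genes tested, a count that depended on the scaling. Fold changes are differences of log2(FPKM + 1), knockout less control, in the 7823 genes averaging 1 FPKM or more; 84 of the 87 genes passed this filter, and Rpl6l, Rpl32l and Rps23rg1, which did not, read at most 1.10 FPKM in any library. Among 50 large subunit genes tested, 28 had both knockouts below both controls, and 0 had both above. Among 34 of the small subunit, 25 lay below and 1, Rpsa, above. Of all tested genes 11.4% lay below and 27.8% above. Most ribosomal protein genes are abundant, and among the 1177 genes averaging 100 FPKM or more, 26.5% lay below both controls and 19.0% above. After rescaling the libraries to the same sum, 21 large and 22 small subunit genes lay below both controls, against 9.75% of all tested genes and 20.1% of those at 100 FPKM or more. After median ratio scaling these were 44 and 30, against 20.0% and 52.8%. The median log2 fold change was -0.61 in the large and -0.79 in the small subunit, against 0.94 over all tested genes and -0.11 over those at 100 FPKM or more. In 41 of 50 large and 29 of 34 small subunit genes the fold change was negative, against 36.7% of all tested genes and 54.0% of those at 100 FPKM or more.

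None of the genes passed alone. The limma test with Benjamini-Hochberg adjustment over all tested genes called 0 large and 0 small subunit genes at an adjusted p under 0.05, as it called 0 of all 7823 (0.00%). The smallest adjusted p of a ribosomal protein gene was 0.559, for Rpl35 and Rps25. At an unadjusted p under 0.05, 3 large and 5 small subunit genes were lower and 0 were higher, against 1.62% lower and 6.07% higher of all tested genes, and 5.18% lower and 3.91% higher of those at 100 FPKM or more. The 3 of 50 in the large subunit were near that share. These counts moved with the settings: 21 large and 21 small subunit genes were lower after median ratio scaling, where 4.68% of all genes were, and 0 and 0 with an untrended variance, where 1.33% were. The count of ribosomal protein genes called was also 0 after quantile normalization, where 0.0639% of all tested genes were called, and without knockout 1 or without knockout 2, where 10.2% and 18.5% were. With the replicate number as a block 0.447% were called, Rpl35 and Rps25 among them. That fit leaves 1 residual degree of freedom, and its calls are not relied on.

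**Figure D2:**
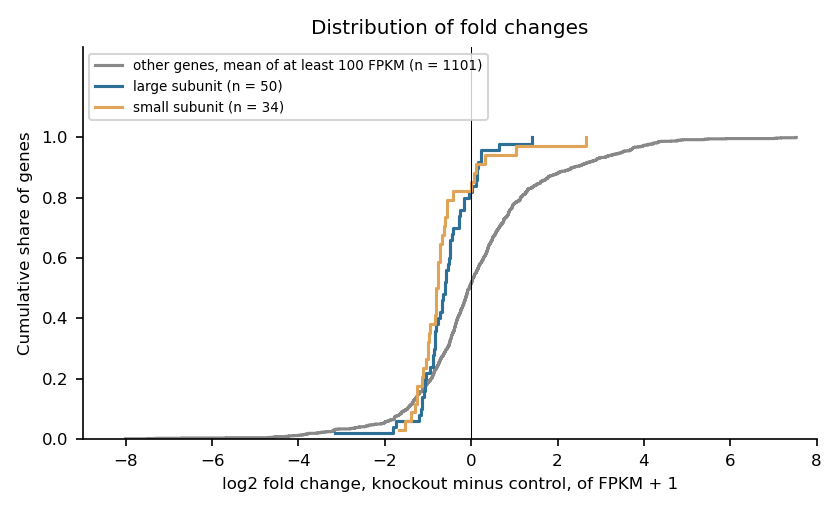
Cumulative distribution of the log2 fold change of FPKM + 1, knockout minus control, for all 50 large and 34 small subunit genes tested and for 1101 other genes. Only the other genes were cut at an average of 100 FPKM or more. The curves of both subunits lie mostly to the left of 0, with medians of -0.61 and -0.79, while the other genes centre at -0.05 and spread more widely.

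The spread within groups was set beside that of other abundant genes, without a test. The median fold between the 2 controls was 1.41 for the large and 1.34 for the small subunit, and between the 2 knockouts 1.55 and 1.33. Among the 1101 other genes averaging 100 FPKM or more these medians were 1.72 and 1.70. In 0 of the 50 large and 0 of the 34 small subunit genes did 1 library hold over 90% of the summed FPKM, which was so in 2 of the 1101 other abundant genes. Pearson's r of the log2 levels over the 84 genes was 0.82 to 0.89 for the 6 pairs of libraries, against 0.38 to 0.59 over the 1101 other abundant genes. The ribosomal protein genes here were not cut at 100 FPKM and span a wide range of levels, and genes are not independent replicates. Over the 76 of them averaging 100 FPKM or more, the median fold was 1.34 between the controls and 1.38 between the knockouts. These 76 were still more abundant than the 1101 others: the median over genes of the mean FPKM was 585 against 230.

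Other abundant short transcripts were examined beside them, without a test of the difference. Ribosomal protein transcripts are short, with a median of 680 bases in GENCODE M21 for the 76 genes averaging 100 FPKM or more. Among 500 other genes at that level with transcripts of up to 1000 bases, 24.6% lay below both controls and the median log2 fold change was -0.11. Among the 66 ribosomal protein genes of that length and level, 45 lay below (68.2%) and the median was -0.78. These sets still differed in level: the median over genes of the mean FPKM was 633 in the 66 and 291 in the 500.

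**Figure D3:**
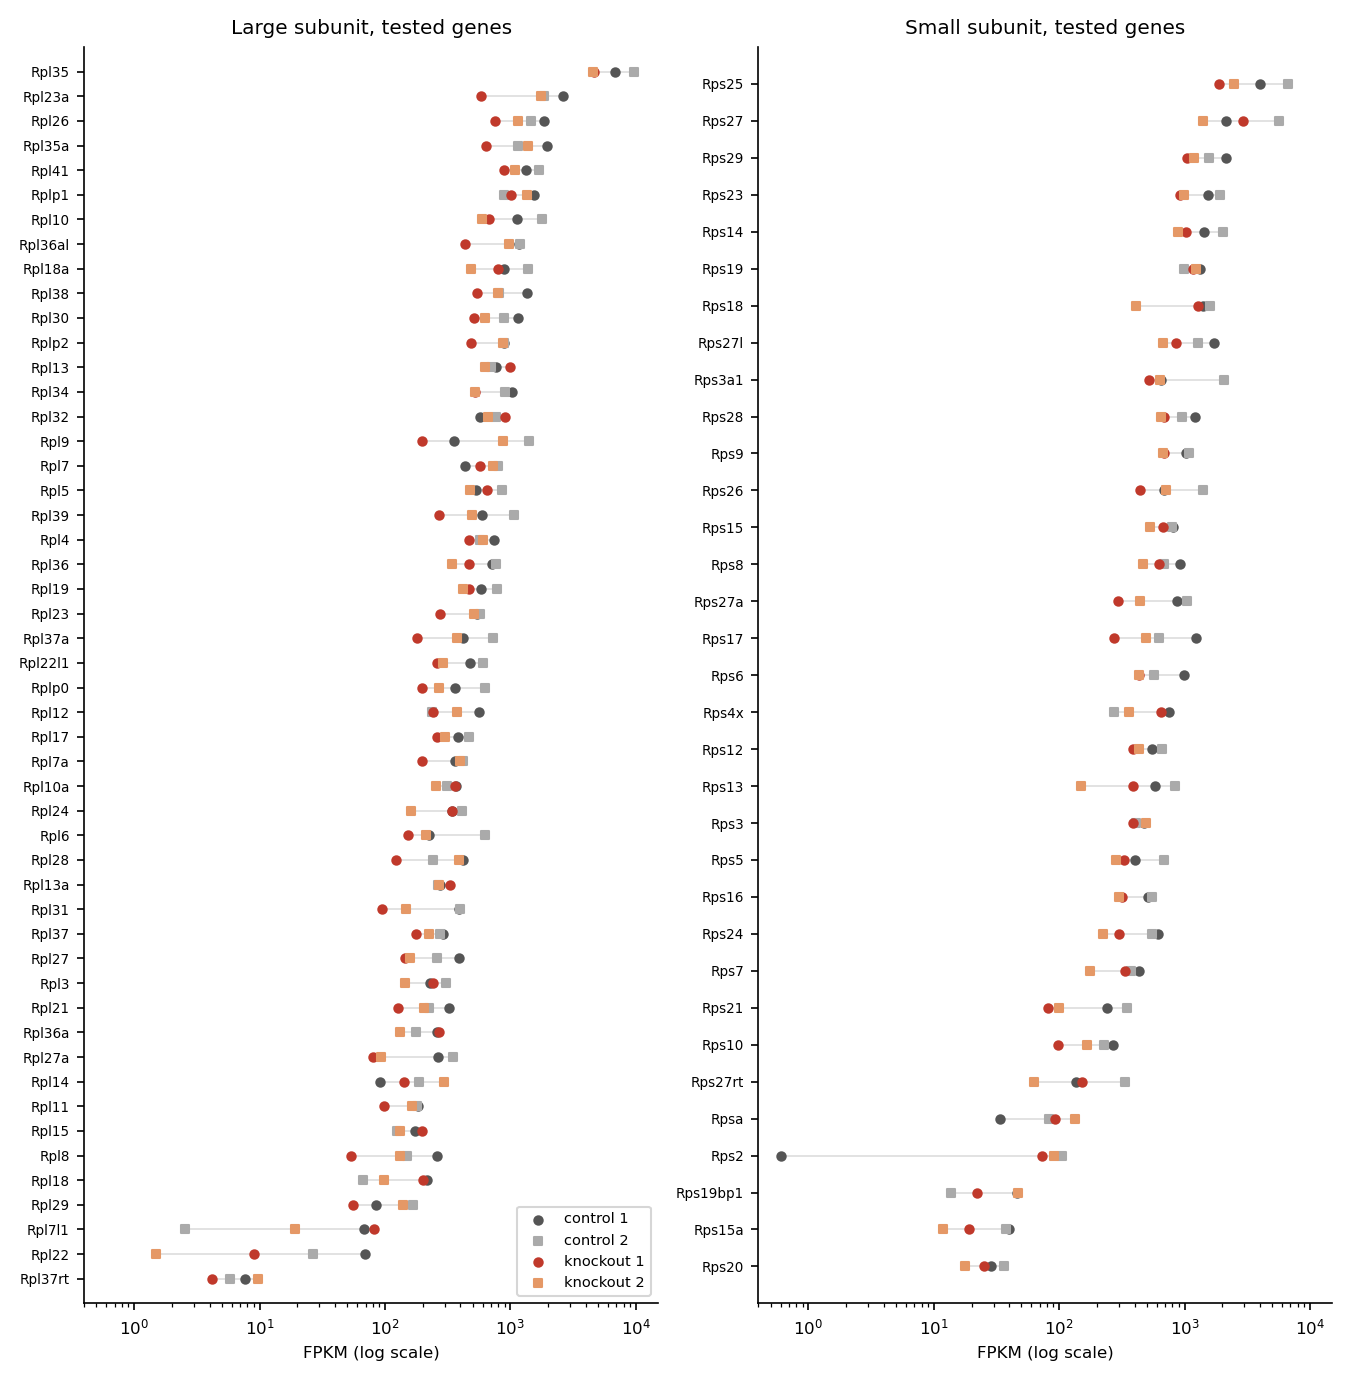
FPKM (log scale) in each of the 4 libraries for tested large and small subunit genes, 1 row per gene in order of mean FPKM. Circles and squares are replicates 1 and 2, grey for controls and red or orange for knockouts; in most rows the red and orange points lie to the left of the grey ones.

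The most abundant transcript of the large subunit was Rpl35 (chromosome 2), whose protein sits at the exit of the peptide tunnel. Rpl35 read 6841 and 9692 FPKM in control libraries and 4619 and 4556 in the knockouts. The knockouts nearly coincided and lay below both controls (log2 fold change -0.83 ± 0.21, SE; limma adjusted p = 0.559). Rpl35 ranked 15 of all 15586 rows by mean FPKM. Rpl23a and Rpl26, its neighbours at the tunnel exit, came next. Rpl23a read 2639 and 1853 FPKM in control libraries and 583 and 1739 in the knockouts. Knockout 1 of Rpl23a was far below the controls, and knockout 2 was just under the lower one. Rpl26, which also binds the messenger RNA of p53, read 1855 and 1463 FPKM against 759 and 1142, with no overlap. Rpl35a read 1942 and 1143 FPKM against 638 and 1375, where knockout 2 lay between the controls.

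Rpl10, a late-joining protein of the large subunit, read 1138 and 1792 FPKM in control libraries and 679 and 596 in the knockouts. Its knockout values were close together and below both controls (log2 fold change -1.17 ± 0.42, SE; limma adjusted p = 0.583). Rpl31, beside the tunnel exit, read 388 and 395 FPKM against 94.1 and 146. The 2 controls of Rpl31 were nearly equal, and its mean was 3.26 times as high in the controls. Rpl27a read 265 and 348 FPKM against 80.8 and 92.2, the most negative fold change among large subunit genes with a mean over 100 FPKM (log2 fold change -1.80 ± 0.76, SE; limma adjusted p = 0.662). Rpl41, a very short and basic peptide, read 1340 and 1707 FPKM against 897 and 1082, below both controls.

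The stalk proteins, which recruit elongation factors, differed among themselves. Rplp0 read 359 and 626 FPKM in control libraries and 198 and 268 in the knockouts, below both. Rplp1 read 1538 and 882 FPKM against 1016 and 1352, within the range of the controls. Rplp2 read 884 and 889 FPKM against 486 and 877, where knockout 2 was just under the controls. Rpl5 and Rpl11, which bind the p53 regulator Mdm2 when they are free of the ribosome, also differed from each other: Rpl5 read 530 and 858 FPKM against 650 and 480, with overlap, and Rpl11 read 185 and 179 against 98.9 and 165, without.

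In 9 large subunit genes the fold change was positive, and in none of them were the groups apart. Rpl32 read 573 and 769 FPKM in control libraries and 914 and 666 in the knockouts. Rpl14 read 91.6 and 188 FPKM against 141 and 296. Rpl7 read 438 and 795 FPKM against 578 and 729. In each of these the spread within a group was as wide as the distance between groups. Rpl13a, which also serves as a translational silencer in interferon-treated myeloid cells, read 273 and 266 FPKM against 331 and 270. After median ratio scaling the signs of Rpl32, Rpl14 and Rpl7 turned negative (-0.65, -0.25 and -0.75).

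In the small subunit, Rps25 (chromosome 9), which contacts internal ribosome entry sites, was the most abundant. Rps25 read 3988 and 6727 FPKM in control libraries and 1869 and 2491 in the knockouts (log2 fold change -1.26 ± 0.32, SE; limma adjusted p = 0.559). Both knockouts lay well under the lower control. Rps23, at the decoding centre, read 1541 and 1936 FPKM against 926 and 993. The 2 libraries of a group were closer to each other than to the other group. Rps29 read 2124 and 1566 FPKM against 1049 and 1179, and Rps14 read 1420 and 2012 against 1034 and 882, also without overlap.

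Rps18 and Rps13 parted the knockouts. Rps18 read 1405 and 1605 FPKM in control libraries, 1270 in knockout 1 and 410 in knockout 2. Rps13 read 582 and 841 FPKM in control libraries, 386 in knockout 1 and 148 in knockout 2. In both, knockout 2 was the low library, whereas Rpl23a was low in knockout 1. Rps21 read 241 and 350 FPKM against 81.4 and 101, the largest negative difference of the small subunit (log2 fold change -1.67 ± 0.77, SE; limma adjusted p = 0.698).

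Rps27a, made as a fusion with ubiquitin, read 877 and 1044 FPKM in control libraries and 296 and 444 in the knockouts, without overlap. Rps6, the substrate of the S6 kinases downstream of mTORC1, read 996 and 571 FPKM against 433 and 430, so its knockout values nearly coincided below both controls. Rps3, which has a second role as a DNA-binding partner of the NF-kB subunit RelA, read 479 and 410 FPKM against 388 and 496. Its groups overlapped and its fold change was -0.01. Rps19, whose loss causes Diamond-Blackfan anaemia in people, read 1323 and 983 FPKM against 1173 and 1229, within the controls' range.

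Rps19bp1, the binding partner of Rps19, read 46.2 and 13.8 FPKM against 21.9 and 46.9, with overlap. The largest positive fold change of the small subunit rested on control 1. Rps2 read 0.60 FPKM in control 1 and 106 in control 2, and 73.1 and 90.9 in the knockouts; without control 1 its fold change was -0.37 in place of 2.66. Rpsa, the laminin receptor precursor, read 34.0 and 83.5 FPKM in control libraries and 92.0 and 135 in the knockouts, the 1 gene of the 84 above both controls (log2 fold change 1.05 ± 1.03, SE; limma adjusted p = 0.698), and its fold change without control 1 was 0.41. Rps2 was the only ribosomal protein gene with 1 library under 1 FPKM and another over 100.

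Paralogs were compared with their standard counterparts, as ratios of FPKM within each library. Rpl22, which represses expression of its paralog Rpl22l1 in mice, read 69.9 and 26.7 FPKM in control libraries and 9.04 and 1.50 in the knockouts (log2 fold change -3.14 ± 1.57, SE; limma adjusted p = 0.698). Rpl22l1 read 476 and 603 FPKM in control libraries and 262 and 293 in the knockouts, also below both. The Rpl22l1 level was 6.81 and 22.6 times that of Rpl22 in control libraries and 29.0 and 195 times in the knockouts, so both genes lay lower while their ratio lay higher. Rps27l, a p53 target, read 1722 and 1289 FPKM against 857 and 667, whereas Rps27 read 2156 and 5630 against 2921 and 1416 and overlapped. Rpl36al read 1181 and 1191 FPKM against 437 and 968, and Rpl36a read 258 and 175 against 271 and 131. Rpl7l1, a nucleolar relative of Rpl7, read 67.6 and 2.53 FPKM in control libraries and 82.5 and 19.1 in the knockouts, so each group held 1 high and 1 low library.

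Some rows share sequence, and their values are uncertain because the counting of such reads is not given in the sources used here. Rps27rt, a retrogene of Rps27, read 137, 333, 153 and 62.6 FPKM in the libraries, controls first, and the ratio of Rps27 to Rps27rt stayed at 15.7 to 22.6 over the 4 libraries while Rps27 itself varied from 1416 to 5630. Rps15a, at 39.6 and 37.6 FPKM against 19.0 and 11.8, was accompanied by Rps15a-ps5 at 27.3 and 28.5 against 12.2 and 7.28, so the pseudogene row held 41.9% of the pair's FPKM in control libraries and 38.7% in the knockouts. The row of Rpl34-ps1 behaved differently. Rpl34 itself read 1036 and 900 FPKM in control libraries and 521 and 525 in the knockouts, below both. Rpl34-ps1 (chromosome 6, 71124589 to 71125001, GRCm38.p6), which RefSeq lists as protein-coding, read 1.22 and 2.93 FPKM in control libraries and 520 and 351 in the knockouts. The 2 rows together read 1037 and 903 FPKM in control libraries and 1040 and 876 in the knockouts, so the lower value of Rpl34 in the knockouts was not present in the sum of FPKM. Since FPKM are divided by the length of each row, this is not a sum of fragments.

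**Figure D4:**
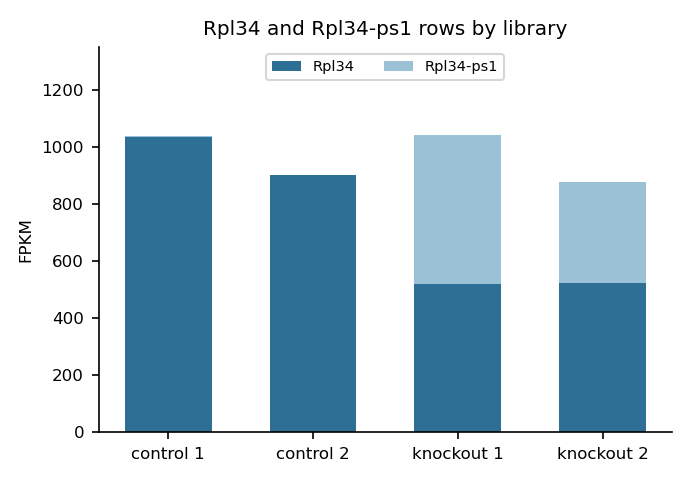
FPKM of the Rpl34 row (dark) and of the Rpl34-ps1 row (light) stacked for each library. The dark part is 1036 and 900 in control libraries and 521 and 525 in the knockouts, while the whole bars span 876 to 1040 in both groups.

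The genes were also counted by whether their promoter window held the ETS core. Of 14 tested large subunit genes whose promoter window held CCGGAAG on either strand, 13 lay below both controls, and of 24 whose window did not, 8 did. In the small subunit 8 of 11 with the core and 9 of 15 without it lay below. Over both, that was 84.0% of 25 genes with the core and 43.6% of 39 without, against 11.4% of all tested genes. Tested genes without a promoter window are in neither count, while 53 of all 84 tested lay below. The medians were closer, -0.83 with the core and -0.57 without. Among other genes averaging 100 FPKM or more the order was the other way round: 19.7% of 218 with the core and 25.5% of 671 without it lay below both controls. For the pyrimidine start within 5 bases, 18 of 30 genes with it and 20 of 34 without it lay below. For the SP1 core it was 23 of 40 with it and 15 of 24 without it. These are counts over genes of the same 4 libraries, the ETS core was 1 of 6 features looked at, and the difference was not tested. They rest on the FPKM as deposited, and the split by core was not counted after rescaling. With median ratio scaling 44 of the 50 large and 30 of the 34 small subunit genes tested lay below both controls, which leaves less room for such a difference.

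The ETS core of the 3 genes that held it and had the most negative fold change in each subunit is shown with the bases around it, on the gene's strand, in capitals; CTTCCGG is the core read from the other strand. The windows are chr7:109519015-109519044 (plus strand) for Rpl27a, chr1:39367848-39367877 (plus) for Rpl31, chrX:37085181-37085210 (minus) for Rpl39, chr2:180257342-180257371 (plus) for Rps21, chr9:44407630-44407659 (plus) for Rps25 and chr17:33955722-33955751 (minus) for Rps18.
Rpl27a: agctaccggggCTTCCGGgggcgggcgcca
Rpl31: ctccccgtgacCCGGAAGttgtacggctac
Rpl39: ctaatcgcgttCTTCCGGtcccggcctttc
Rps21: agtaccctgacCCGGAAGcacttaccgagg
Rps25: cacccattgccCCGGAAGtactctctcgag
Rps18: agaagcaatttCCGGAAGtggacctccggg

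**Figure D5:**
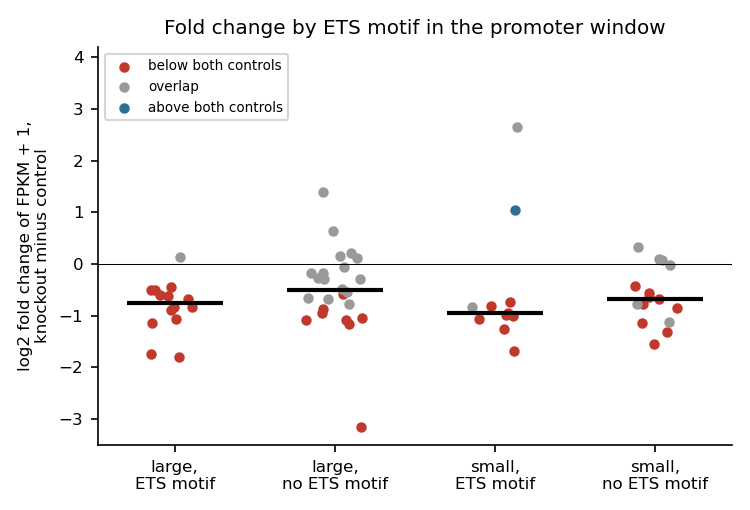
The log2 fold change of FPKM + 1, knockout minus control, for each tested ribosomal protein gene with a promoter window, by subunit and by whether the window holds the ETS core; black lines are medians and red points are genes with both knockouts below both controls. In the large subunit 13 of 14 points with the core are red and 8 of 24 without it, in FPKM as deposited.

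Genes that work with the ribosome were taken from fixed lists, and none of their genes passed the limma test after adjustment over all genes. Their counts are to be read against all tested genes, of which 11.4% lay below both controls and 27.8% above, with a median log2 fold change of 0.94. No gene above both controls is named from these lists, so the counts and not the named genes describe each list. Of the ribosomal proteins with irregular names, Fau, a fusion of the small subunit with a ubiquitin-like protein, read 1120 and 717 FPKM against 584 and 800, and Rack1, a scaffold on the small subunit, read 350 and 441 against 193 and 175. Rack1 lay below both controls and Fau overlapped.

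Of 11 tested elongation genes 2 lay below both controls and 1 above, with a median of 0.02. Eef1a1, which delivers aminoacyl-tRNA, read 1047 and 1591 FPKM against 1365 and 1249, with overlap. Its messenger RNA also has a terminal oligopyrimidine start. Tpt1, another such messenger RNA, read 1655 and 1805 FPKM against 749 and 597, and Eef1b2, an exchange factor, read 378 and 254 against 89.5 and 175. Tpt1 and Eef1b2 were the 2 below both controls. Of 34 tested initiation genes 2 lay below and 6 above, with a median of 0.46, and Eif1, which guards start codon choice, read 752 and 588 FPKM against 779 and 353.

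Of 43 tested ribosome biogenesis genes 5 lay below and 11 above, shares close to those of all tested genes, with a median of 1.36. Npm1, the nucleolar chaperone, read 560 and 954 FPKM against 383 and 147, and Nop10, of the pseudouridylation particles, read 948 and 478 against 175 and 217. Both were below the controls, and the 11 genes above are not named. Of 16 nascent chain and ribosome-associated genes 2 lay below and 1 above, with a median of 0.06. Of 16 tested genes of the mTORC1 and S6 kinase pathway 1 lay below and 2 above, with a median of 0.35. Rheb, the activator of mTORC1, read 449 and 293 FPKM against 388 and 972, and Larp4, an RNA-binding protein of poly(A) tails, read 101 and 116 against 11.3 and 38.8. The 76 tested mitochondrial ribosomal protein genes had a median of 0.37, with 9 below both controls (11.8%) and 18 above (23.7%), close to the shares of all tested genes.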

How the data were processed

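The authors deposited 1 table of FPKM, 1 column per library (per the file headers), rounded to 2 decimals, from 200 sorted cells amplified by a SMART-seq protocol (per the labels' protocols). Per the submitters' processing notes the genome was mm10; which aligner and quantifier were used is not given in the sources used here. Read counts cannot be had from these values: each pair of libraries shared 191 to 377 genes between 0.1 and 1 FPKM, and at most 9.72% of their ratios shared a bin, so relative depth could not be recovered and no counting interval is given.

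Members were found by symbol. Knockout was compared with control on log2(FPKM + 1) by limma 3.58.1 (R 4.3.3, trended variance, 2 residual and 3.99 prior degrees of freedom) over the 7823 genes averaging 1 FPKM or more, with Benjamini-Hochberg adjustment over all of them; folds of low genes are understated on this scale. The code was tested on simulated data. One value per library was compared by exact two-sided permutation. Lengths came from GENCODE M21, and coordinates and promoters from RefSeq (GRCm38.p6). Figures used matplotlib 3.10.9.

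The genes named were, per subunit, the 8 with the highest mean, the 5 with the smallest p, the 3 with the largest and the 3 with the smallest fold change, any under 1 and over 100 FPKM in different libraries, and paralog pairs; in the other lists, up to 3 with the highest mean and 2 with the smallest p. Rplp0, Rplp2, Rpl5, Rpl11, Rpl13a, Rpl34, Rpl39, Rps3, Rps6, Rps15a and the -ps rows were named after their values were seen. Some genes that the rule names are not reported here, though they stay in all counts. The members and lists were chosen with earlier results of these data known.

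The alternatives changed the pseudocount (0.1, 0.5 or 5 FPKM), the filter (none, or an average of 5 FPKM or more), the scaling (equal sums, median ratios or quantiles), the variance model (without trend, or robust), the block (replicate number), the libraries (each left out) and the rows counted as ribosomal. An average of 100 FPKM or more, standard names only, and the count of genes below the controls under other scalings were added after the data were seen.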

Additional observations from a re-analysis of the deposited data

Results flagged for a closer look

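The row of Rpl34-ps1, which the comparison of ribosomal protein genes leaves out, was higher in both knockouts than in both controls, with a mean of 436 ± 119 FPKM in the knockouts and 2.08 ± 1.21 in the controls (SD, n = 2 each; log2 fold change 7.18 ± 1.21, SE; limma adjusted p = 0.559). It was the 1 row of 7 named -ps that lay above both controls. With it, the sum of the Rpl34 rows was 970 ± 95 FPKM in the controls and 958 ± 116 in the knockouts.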

How the results depend on the processing

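The median fold change of both subunits stayed negative, and below that of all tested genes, under every alternative run. Median ratio scaling moved it to -1.49 in the large and -1.67 in the small subunit, where the median of all genes fell from 0.94 to 0.17, and the count of genes below both controls went from 28 to 44 (large) and from 25 to 30 (small), while the share of all genes averaging 100 FPKM or more below both went from 26.5% to 52.8%. After rescaling to the same sum these were 21, 22 and 20.1%. The small subunit median was -0.63 after rescaling to the same sum and -0.60 after quantile normalization. Leaving out 1 library in turn gave medians of -0.87 to -0.42 (large) and -0.81 to -0.69 (small). The ratio of large to small subunit FPKM, 0.17 higher in the knockouts, was -0.016 without knockout 2 and up to 0.35 without knockout 1. The numbers of called genes over all tested were 5 after quantile normalization and 0 to 1311 with 1 library left out, the lone library of a group being assumed to vary like the other group; no ribosomal protein gene was among them.

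Some single genes turned in sign, Rps2 and Rpl7l1 with the largest positive fold change of their subunit among them. Median ratio scaling gave -0.25 for Rpl14, -0.65 for Rpl32, -0.75 for Rpl7, -0.87 for Rplp1, -0.81 for Rps19 and -0.52 for Rps19bp1, which was -0.71 after quantile normalization. With 1 library left out the ranges were -0.70 to 0.35 for Rpl36a, -0.29 to 0.57 for Rpl7, -0.74 to 3.54 for Rpl7l1, -0.39 to 0.41 for Rplp1, -0.14 to 0.29 for Rps19, -0.51 to 1.17 for Rps19bp1 and -0.37 to 5.69 for Rps2. The cause was not tested.

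The replicate numbers share only a number: deviations of same-numbered libraries correlated at r = 0.02 over genes. With the replicate number as a block 35 genes (0.447%) were called, among them 1 large and 1 small subunit gene, Rpl35 (limma adjusted p = 0.0252) and Rps25 (0.00545). That fit leaves 1 residual degree of freedom, and its limma p-values for these genes match a normal distribution, as if each variance were known. Its calls are therefore not relied on.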
